A study of Homo sapiens with 84 samples.

Results

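The early transcriptional response of NCI-H1373 cells to a PARP7 inhibitor was taken from 6 of the 84 libraries of the series, the 3 libraries of cells exposed for 6 h to RBN-2397 at 300 nM and the 3 of cells exposed for 6 h to the vehicle DMSO. NCI-H1373 is an established line of non-small cell lung cancer. The libraries were chosen by their titles, which spell the compound RBN012397, and no measured value entered the choice. The series measured gene expression in NCI-H1373 and in the lung cancer line NCI-H647 by sequencing the 3' ends of transcripts (digital gene expression). Each line received DMSO, 10, 30 or 300 nM RBN-2397, or 3, 10 or 100 nM of another PARP7 inhibitor, RBN012337, and was harvested after 6 or 24 h. The design text places 300 nM near the concentration that inhibits PARP7 by 90%. The titles number the replicates 1 to 3 and give no culture, plate or day. The p-values reflect only how far libraries scatter within the groups fitted together, other doses and times included, and part of that scatter may be technical.

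PARP7 is the product of TIPARP and transfers single ADP-ribose units to proteins. TIPARP is itself a transcriptional target of the aryl hydrocarbon receptor, a ligand-activated factor that dimerises with ARNT and binds DNA at a short core. PARP7 acts back on this receptor as a repressor, in a loop shared with AHRR, the receptor's repressor protein. PARP7 also restrains signalling from nucleic acid sensors to type I interferon, the property for which inhibitors of PARP7 are studied in cancer.

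The 6 libraries held between 1639996 and 5523112 estimated counts, and 8.31% to 10.2% of the counts were mitochondrial. In both groups replicate 3 was the shallowest, with 1664154 counts in DMSO and 1639996 after treatment. The 8 epithelial markers examined were present in all 6 libraries (10.98 to 2570 CPM, counts per 1000000), with KRT7, KRT18 and KRT19 at 549 CPM or more and EPCAM at 258 CPM or more. Of 12 blood markers 5, among them PTPRC and CD3E, were at 0 in all 6 libraries, as were 6 of 9 fibroblast markers and 4 of 8 endothelial markers. Over 7747 genes the groups did not separate fully. DMSO replicates 1 and 3 had a mean correlation of 0.929 and 0.916 with the treated libraries, against 0.917 and 0.911 with the other DMSO libraries. DMSO replicate 2 (0.882 against 0.921) and all treated replicates were closer to their own group. A pair of libraries stood apart in other ways. DMSO replicate 2 had a scaling factor of 0.772 against 0.925 or more in the other 5 libraries, and the ribosomal protein gene RPS24 stood at 12950 CPM there against 3153 to 4061 CPM in the others. In treated replicate 1 CYP1B1, CYP1A1, AHRR and TIPARP lay within or below the DMSO range, unlike in the other treated libraries, and these genes are given with and without it. Whether that library carries its true label was not tested.

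After 6 h at 300 nM, 125 genes were called higher and 81 lower among 12832 tested (edgeR quasi-likelihood test, Benjamini-Hochberg adjusted p under 0.05), which is 1.61% of the genes tested, 0.974% higher and 0.631% lower. The rises lay between 0.76 and 4.84 on the log2 scale and the falls between -0.72 and -7.65. In 198 of the 206 genes the 3 treated libraries did not overlap with the 3 DMSO libraries, a separation seen in 17.9% of all genes tested (9.33% higher and 8.58% lower). With the library size alone as scaling, the split was 181 higher and 31 lower, and the median of all genes moved from 0.01 to 0.16. Of the 57 called genes chosen for naming, 13 then missed the threshold with unchanged direction, at adjusted p of 0.0535 to 0.0920, among them LAMB3, TLE4, SESN3, HES6, BTBD8, NXF1, CD27-AS1, CDC25C, HSPA5 and DNAJA1. With the replicate number as a block 830 genes were called, 433 higher and 397 lower (6.47% of those tested, 3.37% and 3.09%), and all 206 genes were among them.

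The count rested on single libraries and on which libraries shared the fit. With only the 21 libraries at 6 h no gene passed, and with only the 6 libraries compared 60 did, 42 of the 206 among them. DMSO replicate 2 was the DMSO library farthest from the treated ones in 93 of the 125 genes called higher and in 69 of the 81 called lower. Without it no gene passed (edgeR quasi-likelihood test, 1045 genes with an unadjusted p under 0.05), and the adjusted p of the 206 genes lay between 0.146 and 0.564. All 206 kept their direction, with a median size of 0.872 of the original. With the replicate block and without this library 179 genes were called, and 106 of the 206 were among them. Without treated replicate 2 no gene passed either (1558 with an unadjusted p under 0.05), and with the block 31 did. Without treated replicate 1, 68 genes passed, and 392 with the block. The other single removals left 104 (treated replicate 3), 358 (DMSO replicate 1) and 349 (DMSO replicate 3). Of the 57 called genes chosen for naming, 29 stayed past the threshold without treated replicate 1, 23 without treated replicate 3, 36 without DMSO replicate 1 and 50 without DMSO replicate 3. CYP1B1, SMAD3, BMP4, IRS1 and IER3 had an adjusted p of 0.146 without DMSO replicate 2, and INHBA and EGR1 one of 0.238.

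**Figure D1:**
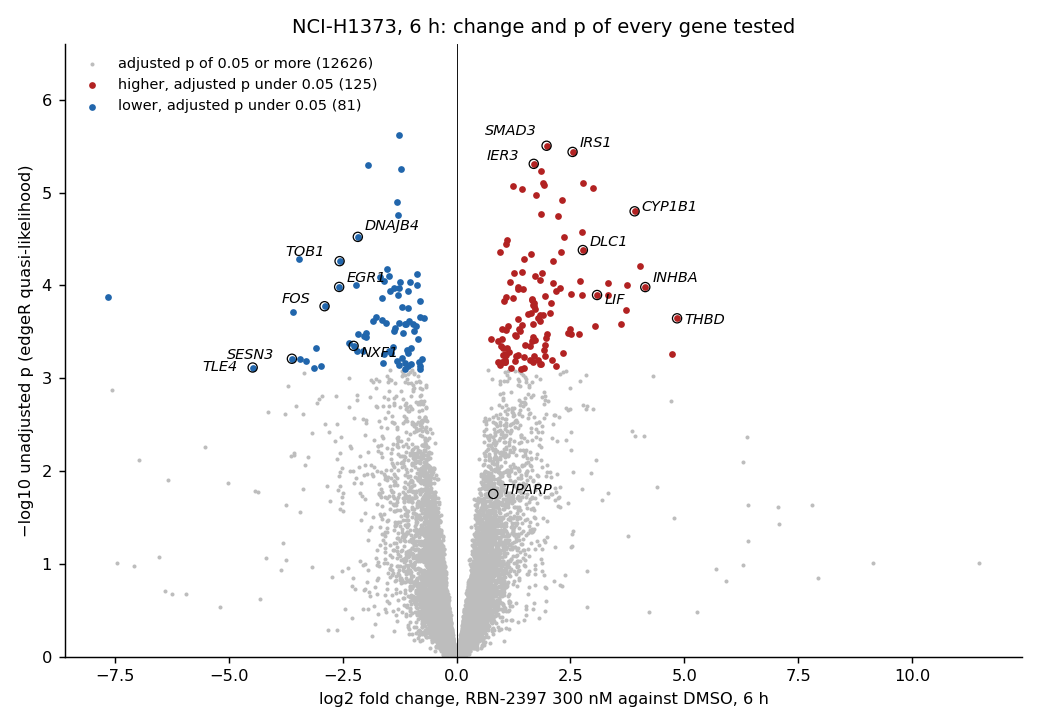
Log2 fold change of each of 12832 genes between RBN-2397 300 nM and DMSO at 6 h (x axis) against the -log10 of the unadjusted p (y axis), 1 point per gene, with the 125 genes called higher in red, the 81 called lower in blue and the rest in grey. Circled genes are named in the text; TIPARP, at 0.81, lies below the called genes.

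TIPARP, which encodes the target of the compound (ENSG00000163659.12, chromosome 3, 156673235 to 156706770 on GRCh38), was measured at 30.9, 79.8 and 108 CPM in treated replicates 1 to 3 and at 30.5, 71.9 and 21.9 CPM in DMSO. The groups overlapped, since treated replicate 1 and DMSO replicate 1 were alike and DMSO replicate 2 was high. The log2 fold change was 0.81 ± 0.32 (SE, n = 3 per group; edgeR quasi-likelihood adjusted p = 0.194). It was 1.43 without DMSO replicate 2 and 1.19 without treated replicate 1, with adjusted p of 0.146 and 0.0602. The other 15 treated libraries at 6 h held TIPARP at 64.4 to 139 CPM.

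CYP1B1, a cytochrome P450 that the aryl hydrocarbon receptor induces (ENSG00000138061.11, chromosome 2, 38066973 to 38109902), stood at 11.2, 309 and 372 CPM after treatment and at 13.4, 14.7 and 18.3 CPM in DMSO. Treated replicate 1 lay below all 3 DMSO libraries, whereas replicates 2 and 3 lay far above them. CYP1B1 rose by 3.91 ± 0.75 on the log2 scale (edgeR quasi-likelihood adjusted p = 0.0115), and by 4.48 without treated replicate 1. In the other 15 treated libraries at 6 h it was found at 112 to 765 CPM. STC2, a secreted glycoprotein hormone, was the other receptor target called, at 130.1, 237 and 363 CPM against 65.5, 78.2 and 83.5 CPM, a rise of 1.68 ± 0.44. Its treated libraries all exceeded its DMSO libraries, replicate 1 least.

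The receptor's own monooxygenase target CYP1A1 was found at 0.424, 30.9 and 7.38 CPM after treatment and at 0.394, 1.05 and 0 CPM in DMSO (4.71 ± 1.37, adjusted p = 0.0721). AHRR stood at 4.45, 23.8 and 15.4 CPM against 4.53, 3.15 and 3.05 CPM (1.93 ± 0.57, adjusted p = 0.0719). In both genes treated replicate 1 was at the DMSO level and the other treated libraries were above it. Without treated replicate 1 both passed, at 5.30 for CYP1A1 and 2.40 for AHRR (edgeR quasi-likelihood adjusted p of 0.0387 and 0.0329), and with the replicate block CYP1A1 passed (adjusted p = 0.0306) and AHRR had an adjusted p of 0.0520. Of 12 receptor targets tested, 2 rose and none fell, with a median log2 fold change of 1.06 against 0.01 over all genes tested. Of the 10 genes for the receptor and its partners none was called, and their median was -0.10: AHR itself had a log2 fold change of 0.38 ± 0.21 and ARNT, its dimerisation partner, of -0.37 ± 0.40.

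The receptor complex binds DNA at the core GCGTG, which reads CACGC on the other strand. RefSeq promoter windows (GRCh38.p14, 250 bases before to 50 after a start site) were found for CYP1A1, AHRR and TIPARP, and the 250 bases before the start are shown for CYP1A1 and for the first of the 3 TIPARP windows, with the core in capitals, because these genes are the receptor's reference targets. The CYP1A1 window lies on the minus strand at chr15:74725529-74725778 and the TIPARP window on the plus strand at chr3:156674340-156674589.
CYP1A1: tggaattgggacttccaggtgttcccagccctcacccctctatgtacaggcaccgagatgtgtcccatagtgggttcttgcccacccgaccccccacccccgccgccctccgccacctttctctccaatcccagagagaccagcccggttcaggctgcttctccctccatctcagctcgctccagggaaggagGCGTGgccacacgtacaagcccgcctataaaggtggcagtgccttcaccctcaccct
TIPARP: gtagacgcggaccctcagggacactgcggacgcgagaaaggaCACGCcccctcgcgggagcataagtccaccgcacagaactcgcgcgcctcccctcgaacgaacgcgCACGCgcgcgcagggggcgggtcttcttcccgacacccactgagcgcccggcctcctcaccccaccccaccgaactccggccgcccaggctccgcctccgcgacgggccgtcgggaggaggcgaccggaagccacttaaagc
CYP1A1 held 1 core, 57 bases before its start, and this TIPARP window held 2, at 208 and 142 bases before the start. The other TIPARP windows held none, and the 2 windows of AHRR held 1 and 2. On either strand the core occurs in 36.5% of the 35116 windows of the table, so a match describes the sequence and no more.

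**Figure D2:**
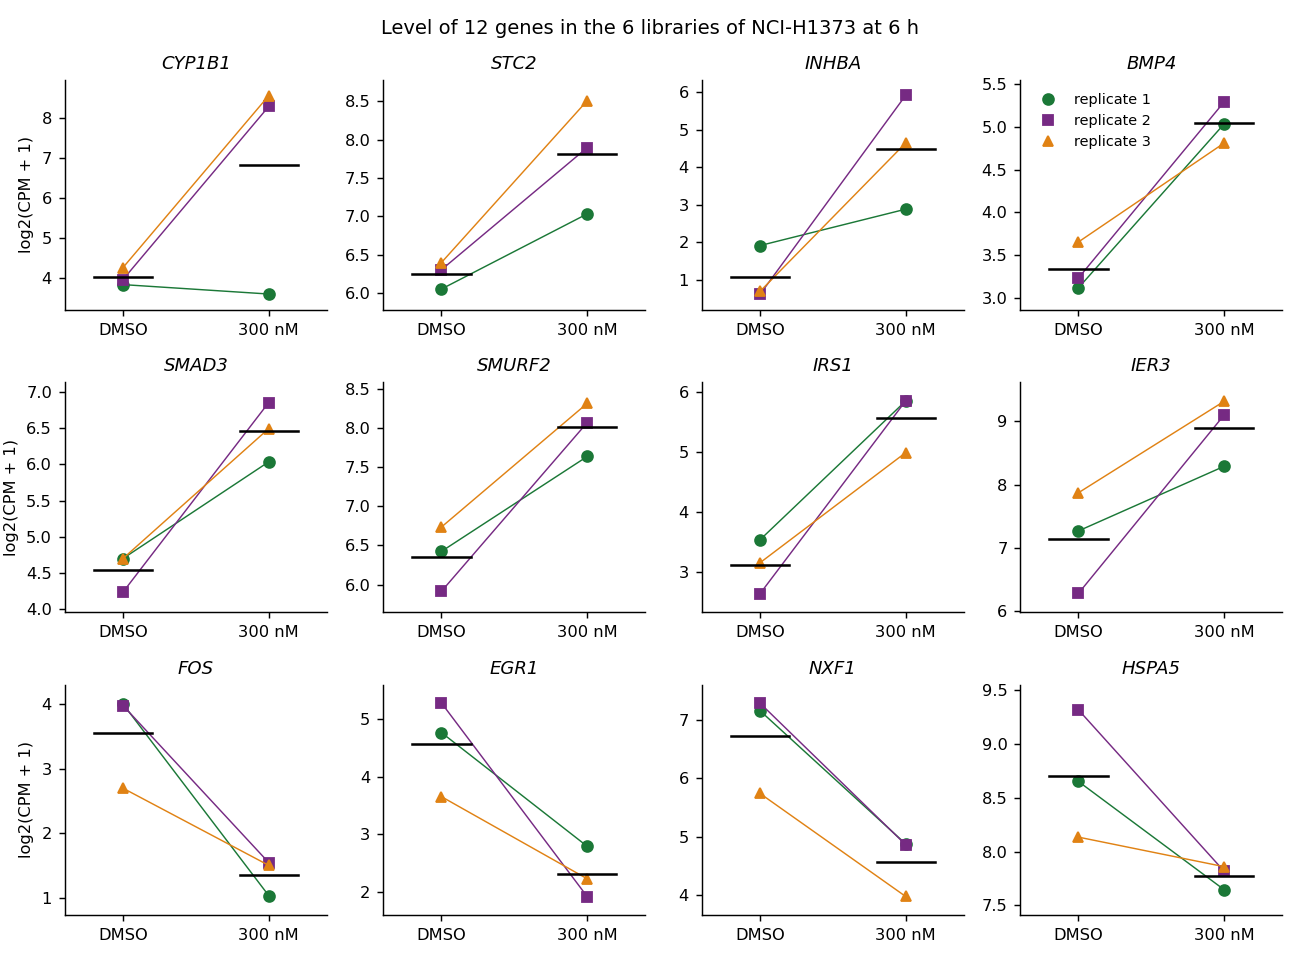
Level of 12 genes as log2(CPM + 1) (y axis) in the 3 DMSO and the 3 RBN-2397 300 nM libraries (x axis); symbols mark the replicate number, lines join libraries of the same number and black bars are group means. CYP1B1 in treated replicate 1, at 11.2 CPM, is the point that stayed at the DMSO level, while SMAD3, SMURF2, IRS1 and IER3 rose and FOS, EGR1, NXF1 and HSPA5 fell in all 3 treated libraries.

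Ligands, transducers and targets of the TGF-beta and activin pathway were among the rises. In this pathway dimeric ligands bind a pair of receptor kinases, which phosphorylate SMAD2 and SMAD3, and these enter the nucleus with SMAD4 and act on target genes. Among 14 ligands and receptors tested 2 rose and none fell, with a median of 0.49. INHBA, the subunit of activin A, was measured at 6.35, 59.2 and 24.0 CPM after treatment and at 2.75, 0.525 and 0.610 CPM in DMSO, a rise of 4.14 ± 0.93 (edgeR quasi-likelihood adjusted p = 0.0229). BMP4, a bone morphogenetic protein, stood at 31.8, 38.2 and 27.1 CPM against 7.67, 8.40 and 11.6 CPM, a rise of 1.86 ± 0.38 (adjusted p = 0.0115). The groups did not overlap in either gene, and INHBA varied more between treated libraries than BMP4 did. FST, the secreted antagonist that binds activin, had 2.24 ± 0.69 (adjusted p = 0.0851), and the receptor gene ACVR2A had -1.77 ± 0.50 (adjusted p = 0.0542). With the replicate block both passed, at adjusted p of 0.00648 and 0.0215, as did INHBB, the other activin subunit, at 0.0273.

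Of 24 SMADs, feedback genes and targets tested, 5 rose and none fell, with a median of 0.40. SMAD3, the signal transducer itself (chromosome 15, 67063763 to 67195195), was found at 64.6, 115 and 89.2 CPM after treatment and at 24.99, 17.8 and 24.99 CPM in DMSO. This was a rise of 1.98 ± 0.36 (edgeR quasi-likelihood adjusted p = 0.00912), and every treated library, replicate 1 included, was more than double any DMSO library. SMURF2, a ubiquitin ligase for SMADs and receptors, stood at 198, 267 and 317 CPM against 84.8, 59.3 and 105 CPM and rose by 1.65 ± 0.38 (adjusted p = 0.0243), with all treated libraries above all DMSO libraries. PMEPA1, a membrane adaptor that withdraws SMADs from the receptor, rose by 1.18 ± 0.27. RUNX2, a transcription factor partner of SMADs, rose by 3.32 ± 0.78 from low levels, at 2.75, 10.3 and 12.9 CPM against 0.984, 0 and 1.22 CPM.

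Genes of coagulation and of the cell surface that controls it were called 3 times in 14, all higher, with a list median of 0.48. They included THBD, thrombomodulin, the surface cofactor that redirects thrombin to protein C, and F2R, the thrombin receptor PAR1. THBD was measured at 1.69, 10.7 and 11.1 CPM after treatment and at 0.394, 0 and 0 CPM in DMSO, or 76 counts against 2. The ratio of these sums, scaled to depth, was 29.8 with an exact 95% interval of 7.97 to 250.3 for counting error, and the adjusted p was 0.0296. F2R stood at 40.0, 61.3 and 53.5 CPM against 24.2, 22.04 and 25.6 CPM, a rise of 1.11 ± 0.24. F3, tissue factor, which starts the cascade, had 189.99, 309 and 307 CPM against 56.3, 62.4 and 83.5 CPM without overlap. Its log2 fold change of 2.00 ± 0.80 did not pass (adjusted p = 0.202). PLAU, the protease urokinase, had 1.49 ± 0.44 (adjusted p = 0.0745) and passed with the replicate block (adjusted p = 0.0404).

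Of 10 EGF receptor family members and ligands tested, 3 rose and none fell, with a median of 0.74. The receptor gene EGFR was found at 178, 257 and 206 CPM against 145, 76.6 and 98.8 CPM, a rise of 0.99 ± 0.25. Its feedback inhibitor ERRFI1 rose by 1.94 ± 0.50 and its ligand AREG by 1.36 ± 0.33 (edgeR quasi-likelihood adjusted p of 0.0321, 0.0439 and 0.0298 in this order). In AREG treated replicate 1, at 151 CPM, fell below DMSO replicate 3, at 159 CPM, so its groups overlapped. The ligand gene HBEGF had a value in the other direction, -1.29 ± 0.62 (adjusted p = 0.298).

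Cytokine genes were low in these cells, and 10 of the 25 listed could be tested. Of these 2 rose and none fell, with a median of 1.74. LIF, an interleukin-6 family cytokine, was at 5.72, 9.22 and 6.77 CPM after treatment and at 0.787, 0 and 1.83 CPM in DMSO. The chemokine gene CXCL2 was at 5.30, 8.58 and 10.5 CPM against 1.57, 0.525 and 0 CPM. Neither gene overlapped between groups. CSF1, the macrophage growth factor, had 1.73 ± 0.48 (adjusted p = 0.0526) and passed with the replicate block (adjusted p = 0.0219). Among 17 NF-kB subunits, feedback genes and targets IER3 alone rose (median 0.32). IER3, an early-response survival gene, stood at 312, 548 and 637 CPM against 153, 76.6 and 233 CPM (1.69 ± 0.32, edgeR quasi-likelihood adjusted p = 0.00912). Of 22 YAP and TEAD factors and targets 1 rose, DLC1, a GTPase-activating protein, at 9.74, 21.4 and 23.4 CPM against 1.97, 1.57 and 4.88 CPM (2.77 ± 0.60). The median of that list was 0.48, and 4 of its members passed with the replicate block.

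Immediate early genes moved in both directions. These genes are switched on within minutes of growth factor or stress signals through serum response factor and other resident factors, and FOS and JUN proteins then form the AP-1 dimer. Of 23 tested, 2 rose and 2 fell (median -0.23), and 11 passed with the replicate block. FOS was measured at 1.06, 1.93 and 1.85 CPM after treatment and at 14.96, 14.7 and 5.49 CPM in DMSO, and it fell by 2.90 ± 0.70 on the log2 scale. EGR1, a zinc-finger factor induced by ERK signalling (chromosome 5, 138465490 to 138469315), stood at 5.93, 2.79 and 3.69 CPM against 26.2, 37.8 and 11.6 CPM and fell by 2.58 ± 0.59 (edgeR quasi-likelihood adjusted p of 0.0258 for FOS and 0.0229 for EGR1). In both genes every treated library lay below every DMSO library, and DMSO replicate 3 was the lowest of the controls. FOSL2, a FOS-related AP-1 subunit, rose by 1.46 ± 0.34, and ZFP36L1, which promotes decay of AU-rich mRNAs, rose by 2.10 ± 0.55. ATF3 had -2.54 ± 0.82, KLF6 had 2.33 ± 0.63 and MYC had 1.48 ± 0.44, with adjusted p of 0.105, 0.0511 and 0.0735. All of these passed with the replicate block (adjusted p of 0.0397, 0.00910 and 0.00416).

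The 250 bases before the EGR1 start (plus strand, chr5:138465229-138465478, RefSeq, GRCh38.p14) are shown because they hold the binding pattern of serum response factor, the CArG box, in capitals.
EGR1: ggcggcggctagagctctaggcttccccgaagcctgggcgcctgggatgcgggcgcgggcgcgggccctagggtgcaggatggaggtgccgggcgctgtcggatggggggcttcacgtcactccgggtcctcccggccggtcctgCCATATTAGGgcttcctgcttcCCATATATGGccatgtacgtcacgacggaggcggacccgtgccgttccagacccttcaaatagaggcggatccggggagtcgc
The box was found there 2 times, at 105 and 83 bases before the start. It occurs in 1.29% of the 35116 windows on either strand. The window of FOS held no match to these letters, and sequence farther than 250 bases before its start was not searched. The window of CYP1A1 held 1, at 34 bases before its start, which reads cctataaagg. A match describes the letters and not binding.

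Of 19 ERK phosphatases and feedback genes none was called (median 0.55), where 1.61% of all genes tested were. An unadjusted p under 0.05 (edgeR quasi-likelihood test) was found for 7 of the 19, against 2095 of all 12832 genes (16.3%). SPRY2, a feedback inhibitor of receptor tyrosine kinase signalling, had 2.27 ± 0.63 (adjusted p = 0.0516), CCND1, cyclin D1, had 0.77 ± 0.22 (adjusted p = 0.0544) and PHLDA1 had 2.01 ± 0.58 (adjusted p = 0.0721). DUSP6, the cytoplasmic ERK phosphatase, had 0.89 ± 0.31 (adjusted p = 0.124). These 4 passed with the replicate block, at adjusted p of 0.0179, 0.00787, 0.0222 and 0.0421. Thus within genes usually read as ERK output the values of EGR1 and FOS had the opposite sign to those of SPRY2, PHLDA1 and DUSP6.

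Genes of insulin and nutrient signalling moved in both directions, 3 higher and 1 lower of 16 tested, with a median of -0.69. IRS1, the docking protein of the insulin receptor, was found at 56.6, 56.6 and 30.8 CPM after treatment and at 10.6, 5.25 and 7.93 CPM in DMSO (2.55 ± 0.46, edgeR quasi-likelihood adjusted p = 0.00912). FBXO32, the atrogin-1 ubiquitin ligase subunit, rose by 1.48 ± 0.32, and DDIT4, an inhibitor of mTORC1, by 1.68 ± 0.42. In DDIT4 treated replicate 1, at 13.98 CPM, lay within the DMSO range of 8.92 to 15.3 CPM. SESN3, a sestrin that also restrains mTORC1, was at 0.212, 0.429 and 1.85 CPM against 7.28, 11.5 and 4.27 CPM and fell by 3.62 ± 0.96 (adjusted p = 0.0453). TXNIP, the thioredoxin-binding arrestin, had -0.89 ± 0.36 without overlap (adjusted p = 0.201) and passed with the replicate block (adjusted p = 0.00437). Among 15 Wnt pathway genes the corepressor gene TLE4 fell by 4.48 ± 1.20 (adjusted p = 0.0492), at 0, 0.643 and 2.46 CPM against 10.8, 34.6 and 4.88 CPM. DKK1, a secreted Wnt antagonist, had 318, 131 and 159 CPM against 18.5, 20.5 and 97.5 CPM (2.20 ± 0.81, adjusted p = 0.156; with the replicate block 0.0252).

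Chaperone genes were among the falls. Of 20 endoplasmic reticulum chaperones and XBP1 targets 1 fell and 17 of 20 values were below 0 (median -0.33). HSPA5, the chaperone BiP, stood at 199, 225 and 231 CPM against 400.5, 635 and 279.8 CPM and fell by 1.01 ± 0.27. Of 14 cytosolic heat shock chaperones 2 fell and 12 of 14 values were below 0 (median -0.42). Over all 12832 genes tested 6260 values were below 0. The same held for 43 of 46 cytosolic ribosomal protein genes and 13 of 13 mitochondrially encoded transcripts, so this tilt was not particular to chaperones. DNAJB4, an HSP40 family cochaperone, was at 8.68, 5.36 and 10.5 CPM against 20.9, 45.1 and 42.7 CPM and fell by 2.17 ± 0.46, and DNAJA1 fell by 0.80 ± 0.22 (edgeR quasi-likelihood adjusted p of 0.0472, 0.0167 and 0.0493 in this order). With the library size alone as scaling, 15 of the 20 and 10 of the 14 values were below 0, against 4645 of all 12832. With the replicate block 5 members of each list passed. Of 20 genes of the ATF4 and integrated stress response 2 rose, STC2 and the factor gene CEBPB (1.61 ± 0.43), and the list median was 0.00. DDIT3, the stress factor CHOP, had -0.97 ± 0.37 (adjusted p = 0.170) and passed with the replicate block (adjusted p = 0.0174).

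Of 35 mitosis and G2/M genes 2 fell and none rose, and 28 of 35 values were below 0 (median -0.39), against 6260 of all 12832. With the library size alone as scaling, 24 of the 35 were below 0 (median -0.23 against 0.16 over all genes). CDC25C, the phosphatase that activates CDK1 at mitotic entry, was at 21.4, 16.1 and 15.99 CPM after treatment and at 54.5, 60.3 and 35.4 CPM in DMSO (a fall of 1.48 ± 0.39). NUSAP1, a spindle-associated protein, stood at 189, 146 and 191 CPM against 299, 597 and 254 CPM (a fall of 1.13 ± 0.28). With the replicate block 12 of the 35 passed. Of 33 DNA replication and S-phase genes 1 fell, CCNE2, cyclin E2, by 2.06 ± 0.54 (edgeR quasi-likelihood adjusted p = 0.0418), and the median was 0.00. In bulk RNA fewer cells in a phase of the cycle and less RNA per cell cannot be told apart.

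Some lists held no call at all. Over all genes tested 1.61% were called, so the lack of a call in lists of 51 genes or fewer says little. None of 51 interferon-stimulated genes was called (edgeR quasi-likelihood test, median 0.01), and 6 had an unadjusted p under 0.05, against 16.3% of all genes tested. With the replicate block none of the 51 was called, against 6.47% of all genes tested. Over the list 26 values were above 0 and 25 below. IFIT1 had 2.18 ± 0.86 (adjusted p = 0.190), with treated libraries at 23.1, 78.3 and 221 CPM and DMSO libraries at 16.1, 8.40 and 47.6 CPM. OASL stood at 22.2, 46.8 and 100 CPM against 25.4, 12.6 and 17.1 CPM. In both genes treated replicate 1 lay within the DMSO range. The other 15 treated libraries at 6 h held IFIT1 at 26.9 to 248 CPM and OASL at 58.8 to 152 CPM. Of 19 interferon genes 16 were at 0 in all 6 libraries and 2 could be tested. IFNL1 had 20 counts in the treated and 3 in the DMSO libraries, a depth-scaled ratio of 5.22 with an exact 95% interval of 1.55 to 27.5 for counting error, and 8.61 CPM of it lay in treated replicate 3 (adjusted p = 0.342). None of 15 PARP family genes, TIPARP included, was called (median -0.04). The same held for 18 p53 targets, 25 sterol and fatty acid synthesis genes, 19 NRF2 genes, 46 cytosolic ribosomal protein genes (median -0.20) and 13 mitochondrially encoded transcripts (median -0.27). With the replicate block 2 p53 targets, 2 sterol genes, 1 NRF2 gene and 1 ribosomal protein gene passed. Single members of other lists were called: the hypoxia gene ANKRD37 fell by 1.49 ± 0.34 among 23 glycolysis and hypoxia genes, the laminin gene LAMB3 rose by 1.05 ± 0.28 among 23 keratin and adhesion genes, and the epithelial progenitor factor SOX9 rose by 2.34 ± 0.62 among 13 lung lineage genes.

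**Figure D3:**
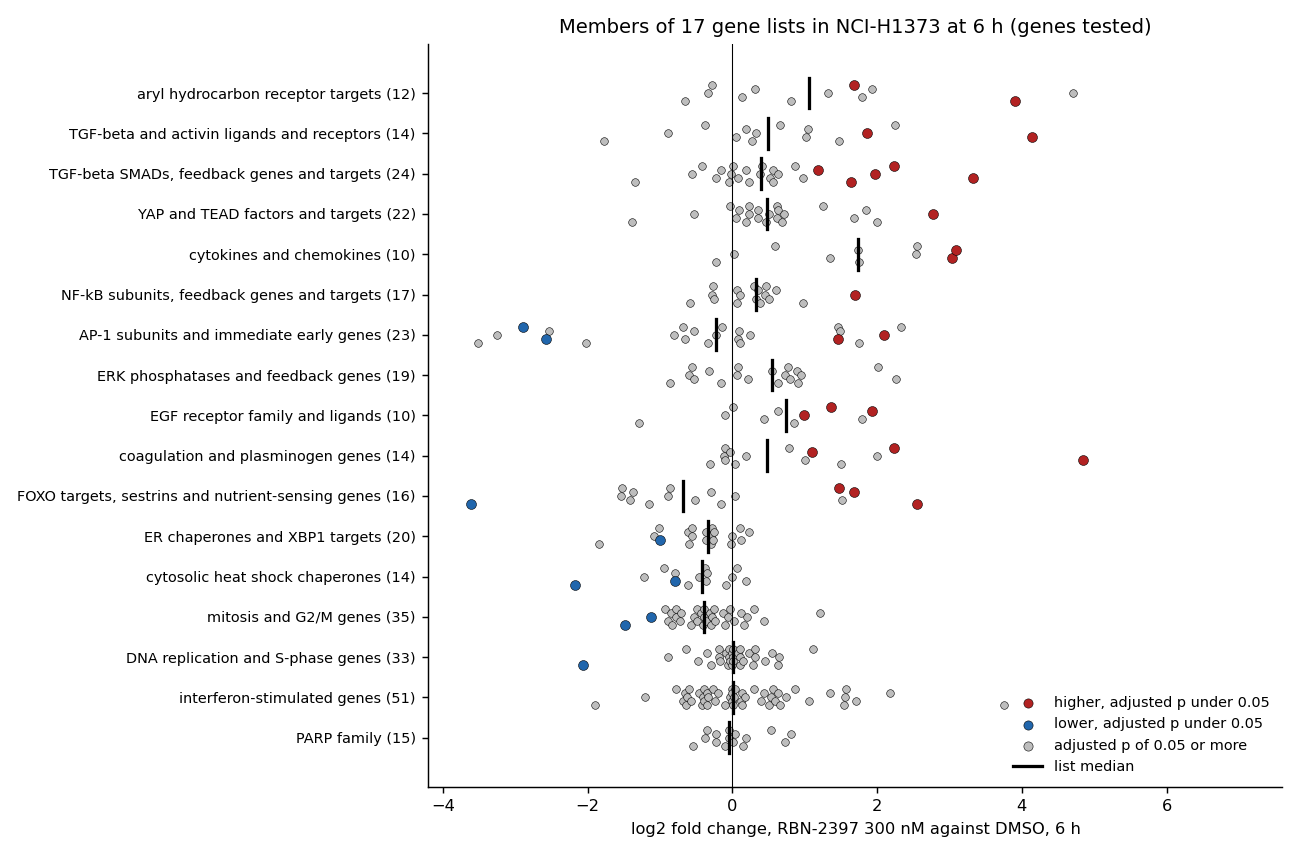
Log2 fold change at 6 h (x axis) of the tested members of 17 gene lists (rows, number tested in parentheses), 1 point per gene, with genes called higher in red, genes called lower in blue and list medians as black bars; the vertical spread within a row carries no value. Receptor targets and TGF-beta, cytokine and EGF receptor genes lie mostly to the right, and mitosis and chaperone genes mostly to the left, with medians of -0.42 to -0.33.

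The 15 largest rises and 15 largest falls without overlap included 4 genes with clone-based names. One of these, AL731571.1, had 84 counts in DMSO and none after treatment. Against a floor of 3 counts over the treated group, the summed count was at least 35.7-fold lower. This bound rests on DMSO replicates 1 and 2, at 11.5 CPM or more, since DMSO replicate 3 stood at 0.610 CPM. At 6 h AL731571.1 was at 15.4 CPM in replicate 2 of RBN-2397 30 nM. It was at 15.1 and 16.9 CPM in replicates 1 and 2 of RBN012337 100 nM, and at 0 to 1.04 CPM in the remaining treated libraries. MARS2, the mitochondrial methionyl-tRNA synthetase, had 64 counts against 3, a depth-scaled ratio of 16.7 (exact 95% interval 5.47 to 83.2 for counting error). NFATC2, a calcineurin-regulated factor, had 34 counts against 2, a ratio of 13.3 (3.42 to 114), and the dehydrogenase family gene SDR42E1 had 41 against 3, a ratio of 10.7 (3.42 to 54.1). The PHD finger gene PHF23 rose by 2.78 ± 0.53, the endocytic adaptor gene EPN3 by 2.75 ± 0.65 and the long noncoding RNA MIR503HG by 3.00 ± 0.59. FAM86EP (4.03 ± 0.90) is a pseudogene with close relatives, and CD27-AS1 (-2.19 ± 0.58) lies antisense to another gene, so reads of either may belong elsewhere.

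Among the 15 largest falls without overlap was NXF1, the principal mRNA export receptor (chromosome 11, 62792123 to 62806302). It was measured at 28.4, 28.1 and 14.8 CPM after treatment and at 141, 155 and 52.4 CPM in DMSO, a fall of 2.26 ± 0.57 (edgeR quasi-likelihood adjusted p = 0.0391). TOB1, an antiproliferative adaptor of the CCR4-NOT deadenylase, was at 2.12, 3.43 and 2.46 CPM against 19.9, 19.4 and 8.53 CPM and fell by 2.57 ± 0.56. HES6, a basic helix-loop-helix factor, fell by 3.12 ± 0.85, and the ubiquitin ligase gene TRIM36 by 3.46 ± 0.76. BTBD8 fell by 2.36 ± 0.61 and the zinc-finger gene ZNF267 by 2.21 ± 0.51. DMSO replicate 3 was the lowest control in NXF1, TOB1, HES6, TRIM36, BTBD8 and ZNF267, and still lay above all treated libraries.

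The lower doses of RBN-2397 at 6 h ask whether these changes depend on dose. Directly compared, no gene was called between 300 and 10 nM (edgeR quasi-likelihood test, 112 genes with an unadjusted p under 0.05, and 0 called by DESeq2). None was called between 300 and 30 nM (389 genes with an unadjusted p under 0.05, and 0 called by DESeq2). In each 1 gene was called with the replicate block. The self-test for 300 nM against DMSO recovered 25.4% of 2-fold changes, so a missing call does not show equal levels. The difference between 300 and 10 nM was -0.04 ± 0.33 for SMAD3, -0.32 ± 0.64 for CYP1B1 and -0.17 ± 0.63 for EGR1. Between 300 and 30 nM it was -1.77 ± 0.57 for NXF1, -1.48 ± 0.60 for EGR1 and 1.75 ± 0.77 for INHBA, each with an adjusted p of 1. Against the same DMSO libraries, 40 genes were called at 10 nM (0.312%) and 3 at 30 nM (0.0234%). With RBN012337 at 100 nM for 6 h, 0 genes were called. Those counts share their controls with the 300 nM count and are given side by side only. The 125 genes called higher at 300 nM, where they were chosen, had a median log2 fold change of 1.70 there. Their median was 1.54 with RBN012337 at 3 nM and 0.53 at 100 nM, against the same DMSO libraries.

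At the lower doses SMAD3 and NXF1 stood at levels like those at 300 nM, with single libraries apart. SMAD3 stood at 79.1, 117 and 79.4 CPM at 10 nM and at 109, 32.5 and 83.7 CPM at 30 nM. NXF1 was found at 33.3, 53.3 and 27.9 CPM at 10 nM and at 37.4, 181 and 27.03 CPM at 30 nM. At 30 nM replicate 2 was thus near the DMSO level for SMAD3 and NXF1, while its CYP1B1, at 203 CPM, was far above DMSO. With RBN012337 at 100 nM, replicates 1 and 2 had SMAD3 at 19.9 and 23.6 CPM and NXF1 at 132 and 194 CPM, against CYP1B1 at 112 and 181 CPM. INHBA (1.44 and 1.85 CPM), BMP4 (5.76 and 8.43 CPM) and IRS1 (9.84 and 10.1 CPM) also lay within or below the DMSO range there. STC2, at 112 and 104 CPM, lay above it. Treated replicate 1 at 300 nM had the reverse combination, CYP1B1 at 11.2 CPM with SMAD3 at 64.6 CPM and NXF1 at 28.4 CPM. CYP1B1 therefore did not move in step with SMAD3 and NXF1 in these 4 libraries. Whether the 4 carry their true labels or received their stated doses was not tested, so the values by dose hold only as far as the labels do.

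**Figure D4:**
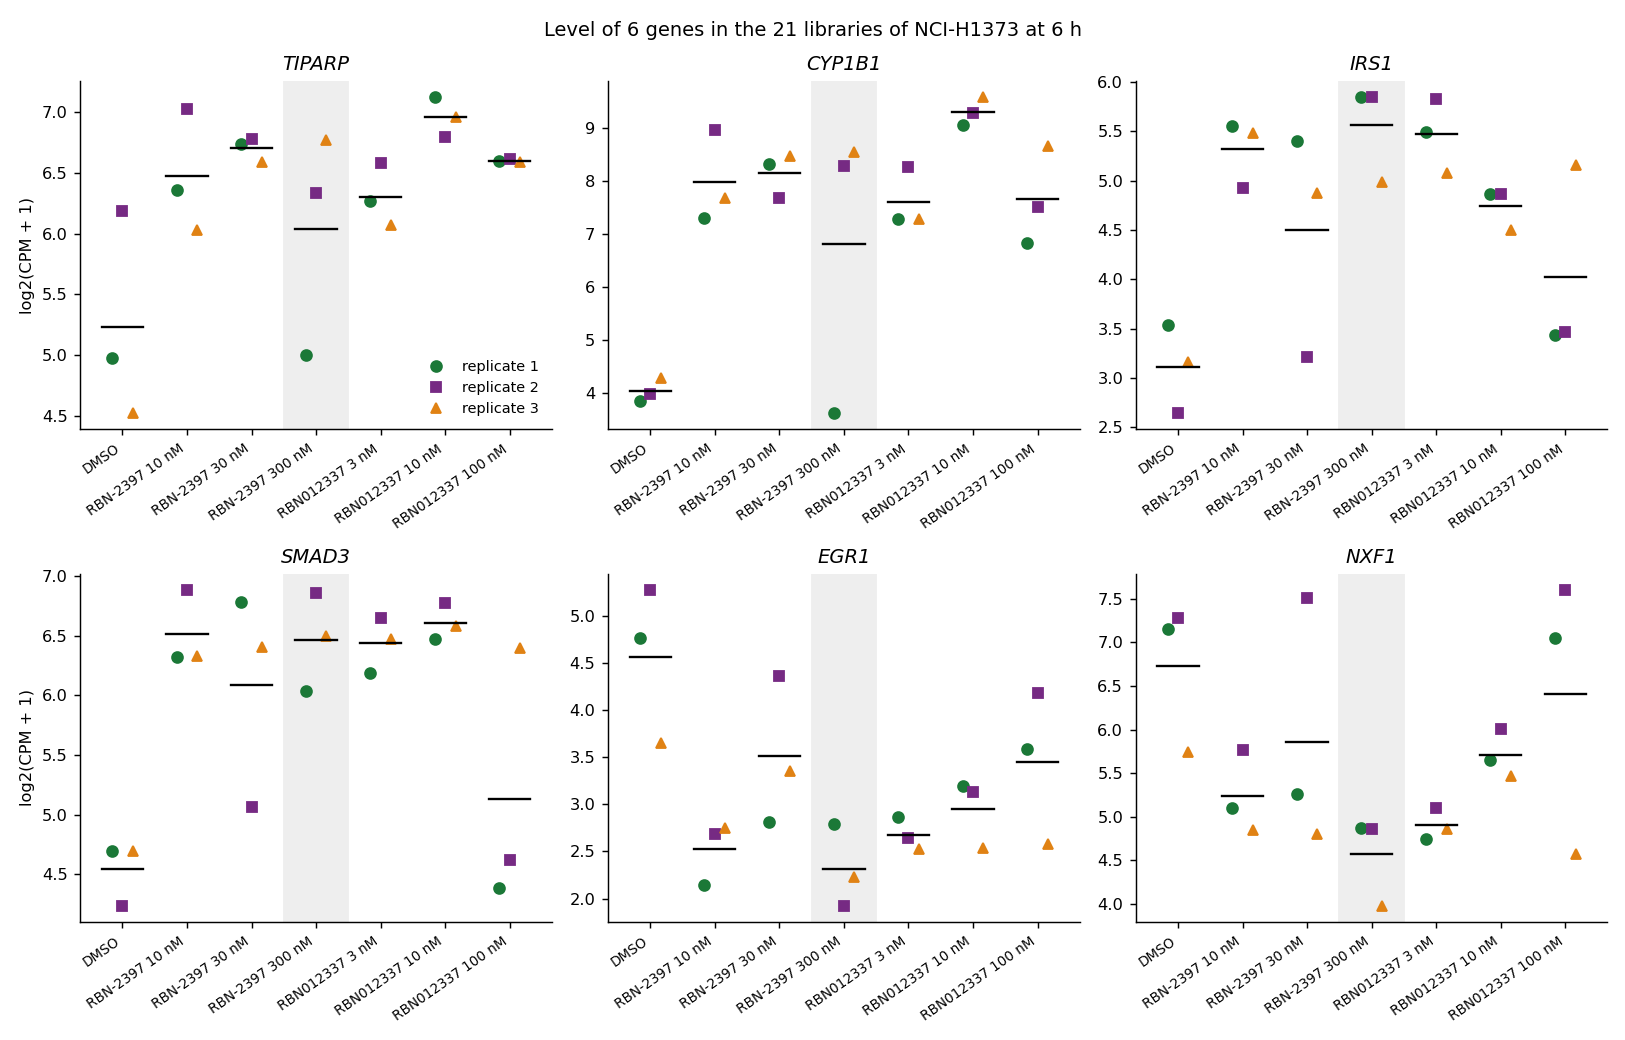
Level of 6 genes as log2(CPM + 1) (y axis) in all 21 NCI-H1373 libraries at 6 h, by treatment (x axis), with symbols for the replicate number, black bars for group means and grey shading for RBN-2397 300 nM. TIPARP and CYP1B1 in treated replicate 1 at 300 nM (30.9 and 11.2 CPM) lie with DMSO, whereas SMAD3 and NXF1 lie with DMSO in replicate 2 at 30 nM (32.5 and 181 CPM).

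At 24 h the same dose was compared with its own 3 DMSO libraries, and 1525 genes were called, 877 higher and 648 lower (11.9% of those tested, 6.83% and 5.05%). Of the 125 genes higher at 6 h, 38 were also called higher at 24 h and 2 were called lower, so that 30.4% of the earlier and 4.33% of the later list are shared. Of the 81 genes lower at 6 h, 15 were called lower at 24 h and none higher. BMP4 (2.01 ± 0.40), IRS1 (1.89 ± 0.46) and INHBA (3.92 ± 1.25) were called higher at both times, and EGR1 (-2.77 ± 0.61) and FOS (-2.79 ± 0.79) lower at both. At 24 h EGR1 stood at 3.24, 7.98 and 6.10 CPM after treatment and at 39.8, 54.2 and 6.94 CPM in DMSO. FOS stood at 0.810, 2.18 and 1.52 CPM against 13.9, 9.11 and 0 CPM. In both genes the groups overlapped through DMSO replicate 3, the shallowest library of the series (630654 counts). CYP1B1 had 1.43 ± 0.72 and SMAD3 0.76 ± 0.35 at 24 h, with adjusted p of 0.207 and 0.161, and for neither did the test of the difference between the times pass (edgeR quasi-likelihood adjusted p of 0.251 and 0.245).

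The difference between the 24 h and the 6 h change was called for 47 genes (0.366% of those tested, with 27 higher and 20 lower at 24 h, or 0.21% and 0.156%), and 10 of these were called at 6 h. DESeq2 called 207 and the replicate block 396, and no gene passed when any of 7 single libraries was left out, namely replicates 2 and 3 of RBN-2397 and replicate 2 of DMSO at 24 h, replicates 1 and 2 of RBN-2397 and replicates 1 and 2 of DMSO at 6 h. NFATC2, TOB1, MB21D2, SH3BP4 and ANKRD37 were changed at 6 h and had values of the other sign at 24 h. TOB1 was found at 14.98, 17.4 and 19.8 CPM after 24 h of treatment and at 10.1, 11.1 and 12.2 CPM in its DMSO, a difference of 3.23 ± 0.78 from the 6 h change (adjusted p = 0.0496). SH3BP4, an endocytic adaptor, stood at 27.5, 16.7 and 19.8 CPM against 31.0, 40.5 and 31.2 CPM at 24 h, and at 30.1, 40.1 and 29.5 CPM against 9.45, 3.67 and 13.4 CPM at 6 h. Its DMSO level was thus higher at 24 h than at 6 h. The base excision repair gene NTHL1, TCTEX1D2 and WDR54 had their larger change at 24 h (1.92, 1.57 and 1.79).

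**Figure D5:**
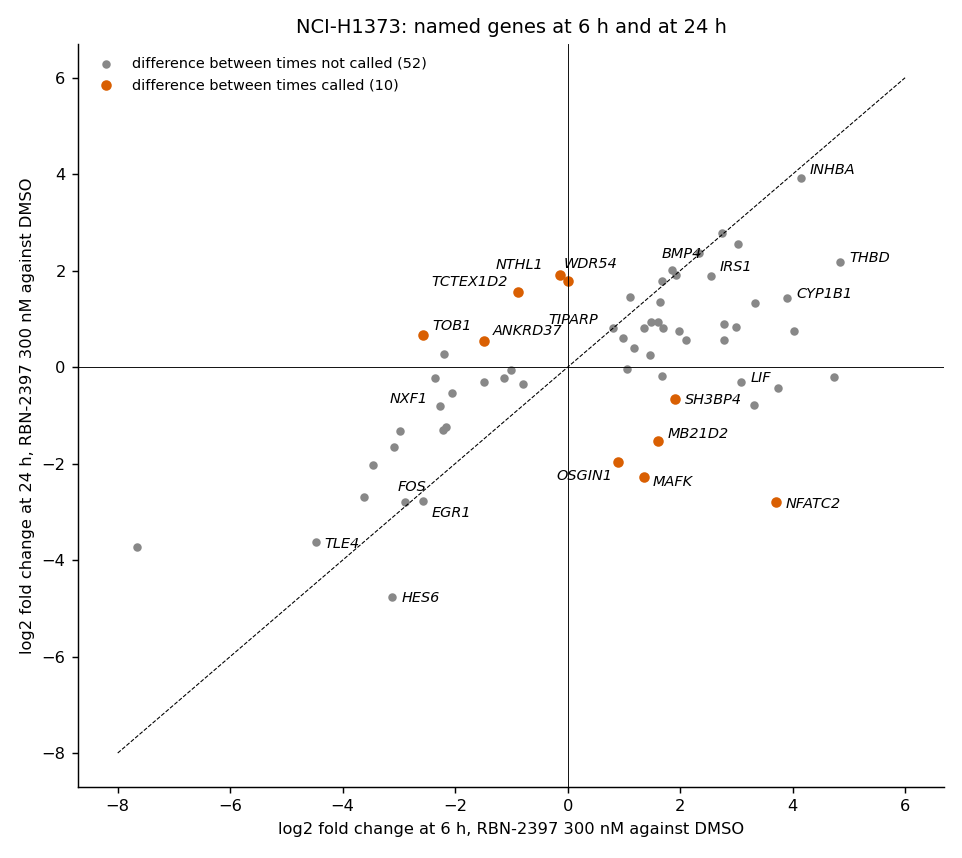
Log2 fold change of 62 named genes at 6 h (x axis) and at 24 h (y axis), RBN-2397 300 nM against the DMSO libraries of the same time, with the dashed line at equality and, in orange, the 10 plotted genes whose difference between times was called. EGR1, FOS, INHBA and BMP4 lie near the line, while NFATC2 (3.71 at 6 h, -2.80 at 24 h) lies farthest from it among those called.

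In NCI-H647 the same treatment for 6 h gave 2 calls among 16177 genes (0.0124%; edgeR quasi-likelihood test, 1705 with an unadjusted p under 0.05). SMAD3 had 0.96 ± 0.33 there, CYP1B1 0.78 ± 0.63, EGR1 -1.31 ± 0.81 and DNAJB4 -1.60, with adjusted p of 0.290, 0.716, 0.593 and 0.143. The test of the difference between the lines called no gene (edgeR quasi-likelihood test, 729 with an unadjusted p under 0.05; DESeq2 called 14). With the replicate number as a block within line and time it called 11 genes.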

How the data were processed

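Total RNA of cells in 6-well dishes went into digital gene expression libraries, per the labels' protocols. The authors deposited 1 table of estimated counts for 57964 genes and 84 libraries, unscaled, made with Salmon 0.11.27 and hg38 per the submitters' processing notes. For the annotation, molecular identifiers and strand the handling is not given in the sources used here. Genes that overlap, lie antisense or have close copies are therefore uncertain, and intervals cover counting error only. Estimated counts were rounded, and columns were matched by title. Names and positions come from GENCODE 29.

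The 42 NCI-H1373 libraries in 14 groups were fitted in 1 model without a block, so that groups share an estimate of the spread: edgeR 4.0.16 (R 4.3.3, limma 3.58.1), filterByExpr, TMM, robust quasi-likelihood F test, Benjamini-Hochberg over 12832 genes, threshold 0.05. Comparisons with NCI-H647 used all 84 libraries. CPM values of genes are TMM-scaled, those of markers are not. The standard error is the log2 fold change divided by the square root of F. The self-test on simulated data for the 300 nM comparison (12832 genes) recovered 25.4% of 2-fold, 71.6% of 4-fold and 83.3% of 8-fold changes.

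Same-numbered libraries of both groups deviated together from their group means (r = 0.526, 0.194 and 0.494 over 7638 genes). Libraries of different number had r of -0.506 to 0.144, the highest between treated replicate 2 and DMSO replicate 1. This is taken as pairing by replicate number, although replicate 2 shows it only weakly. The main fit leaves this pairing out, so its p-values are those of an unpaired test. Blocked values are given where they change a call. All pairs of replicates differed by more than sampling noise. Alternatives were DESeq2 1.42.0, other scalings and filters, fewer libraries, the block and leaving out libraries; the block together with leaving out libraries was chosen after seeing the data.

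The members and the 37 gene lists were chosen with earlier results of these data known. Genes named are TIPARP, the 15 largest rises and falls among called genes without overlap and with a mean of 5 or more counts in the higher group, called list members, up to 4 further members of a list by smallest p, and the 5 smallest p among called genes in other contrasts. Some genes that meet this rule are not reported here, although list counts include them.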

Additional observations from a re-analysis of the deposited data

Results flagged for a closer look

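The response to RBN-2397 at 300 nM in NCI-H1373 differed between 24 h and 6 h in 47 genes by a test of the difference itself (edgeR quasi-likelihood test, adjusted p under 0.05), and the 10 of these that the rule for named genes selects are given here. The log2 response was lower at 24 h by -6.51 for NFATC2, by -3.15 for MB21D2 and by -2.57 for SH3BP4. It was also lower for a pair of genes of the antioxidant list that were not called at 6 h, by -3.63 for MAFK, a small MAF factor, and by -2.86 for OSGIN1, an oxidative stress-induced growth inhibitor. In MAFK the DMSO libraries stood at 1.57, 2.62 and 4.88 CPM at 6 h and at 18.1, 33.4 and 6.94 CPM at 24 h, so the level of the controls changed with time. The response was higher at 24 h by 3.23 for TOB1, 2.04 for ANKRD37, 2.05 for NTHL1, 2.45 for TCTEX1D2 and 1.79 for WDR54. NFATC2 rests on few counts, with treated libraries at 0.202, 0 and 0.762 CPM and DMSO libraries at 1.03, 4.56 and 0 CPM at 24 h. The part of the change in the controls in these differences was not tested.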

How the results depend on the processing

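Calls in the 300 nM comparison at 6 h were 353 with DESeq2 (196 of the 206 among them), 511 with no low-count filter, 0 with only the 21 libraries at 6 h (edgeR quasi-likelihood test, 2188 genes with an unadjusted p under 0.05), 60 with only the 6 libraries, 830 with the replicate block and 440 with the block and only the 6 libraries. Other scalings, a stricter filter and no robust dispersion gave 200 to 231. Leaving out libraries gave 0 to 358 calls. With the block they were 392, 31 and 943 without treated replicates 1, 2 and 3, and 880, 179 and 795 without DMSO replicates 1, 2 and 3. No alternative reversed a named gene, and the block ended no call among the 57 called genes chosen for naming.

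With no low-count filter the differences between 300 and 10 nM, 300 and 30 nM, times and lines had 39, 79, 308 and 62 calls. With the replicate block these were 1, 1, 396 and 11, and with DESeq2 the times gave 207 and the lines 14. Leaving out 1 library gave 0 to 1 call for 300 against 30 nM and for the lines, and 0 to 390 for the times. Depth limits genes with few counts, such as THBD, NFATC2 and MARS2, whose folds are given with counting intervals. Fits without a library borrow their spread from the other groups.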

Other observations

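The called genes named here lie outside the lists and were picked one by one after their values were seen, so they stand for themselves and not for a group (edgeR quasi-likelihood test, adjusted p under 0.05). BRD2, a bromodomain reader of acetylated histones, stood at 80.7, 85.1 and 81.2 CPM after treatment and at 267, 309 and 144 CPM in DMSO, and fell by 1.54 ± 0.38 on the log2 scale. GTF2B, the general factor TFIIB, fell by 1.62 ± 0.43, CCNT2, a cyclin of the elongation kinase P-TEFb, by 1.46 ± 0.34, and CTR9, a subunit of the PAF1 elongation complex, by 1.08 ± 0.28. H3F3B, which encodes the replacement histone H3.3, fell by 0.89 ± 0.22 and HMGB2, a chromatin protein of proliferating cells, by 0.97 ± 0.24. GMNN, the licensing inhibitor geminin, fell by 1.20 ± 0.29 and HJURP, the chaperone of centromeric histone, by 0.86 ± 0.22.

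RXRA, the retinoid X receptor, stood at 30.5, 41.8 and 35.1 CPM against 13.2, 7.35 and 10.97 CPM and rose by 1.73 ± 0.41. NR3C1, the glucocorticoid receptor, rose by 0.97 ± 0.25, while FKBP5, a cochaperone of that receptor and one of its known target genes, fell by 1.21 ± 0.32. ADORA2B, an adenosine receptor, rose by 1.93 ± 0.50, IL4R, an interleukin receptor chain, by 1.50 ± 0.39 and TNFRSF1A, the TNF receptor, by 1.47 ± 0.39. THBS1, thrombospondin-1, an activator of latent TGF-beta, was at 107, 296 and 198 CPM against 58.1, 64.0 and 40.8 CPM and rose by 1.88 ± 0.41, without overlap.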
